A study of Rattus with 6 samples.

Results

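The 9 genes described here encode cytokines of the interleukin 6 (IL6) family and the core of the signalling chain they share: the ligands Il6, Il11, Lif and Clcf1, the receptor chains Il6st (gp130), Lifr and Osmr, the transcription factor Stat3 and its target and inhibitor Socs3. They were chosen by gene name, and all 9 were found among the 16690 genes of the deposited table. The source was mesenchymal stem cells grown from Sprague Dawley rat bone marrow, stromal cells that attach to plastic and can turn into bone, fat or cartilage cells. Rats modelling chronic kidney disease (CKD) gave 3 libraries and healthy control rats gave 3, and the genotype tag of every library is wild-type. How CKD was brought about, and the age and sex of the rats, are not given in the sources used here. The extract protocol speaks of exosome RNA and the design text of RNA from the cells, so which of them was sequenced is not settled, and the libraries are called by their group.

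Cytokines of this family all signal through gp130, a receptor chain that most cells carry. IL6 and IL11 first bind a private receptor chain and then bring gp130 chains together, whereas leukaemia inhibitory factor (LIF) brings gp130 together with the LIF receptor. CLCF1 also signals through gp130 and the LIF receptor, but binds a further chain, CNTFR, whose gene Cntfr was not found in the deposited table. Oncostatin M uses gp130 with its own receptor chain, OSMR. JAK kinases on the receptors then activate STAT3, which switches on SOCS3, and SOCS3 blocks gp130 in return. In bone marrow these cytokines are known products of stromal cells and act on osteoblasts, osteoclasts and blood-forming cells.

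Levels are given in FPKM (fragments scaled to transcript length and library depth), which can be compared between genes because it is set per length. Depth ran from 34404037 to 46892613 recovered fragments per library. Libraries within a group were not alike: CKD replicates 2 and 3 resembled each other (r = 0.996 across genes), as did control replicates 2 and 3 (r = 0.998), while CKD replicate 1 was closest to control replicate 1 (r = 0.967). The disease model tag also goes against the other labels in 2 libraries: it calls CKD replicate 1 a control and control replicate 2 a CKD library. Nothing in the labels ties a library to its own animal, and library names share a start in CKD replicates 1 and 3 and in control replicates 1 and 2, so whether these come from separate animals is not known and the p-values speak of the spread among these libraries, which may be technical. The summed level of 19 haematopoietic and macrophage marker genes was 297, 3335 and 2247 FPKM in CKD replicates 1 to 3 and 409, 22.2 and 14.2 FPKM in control replicates 1 to 3, and 2 and 4 of the 19 were listed at 0 in control replicates 2 and 3. All 17 mesenchymal stromal markers were above 0 in every library, and 15 or 16 of the 17 reached 1 FPKM. The groups did not overlap for 3 that were higher in CKD (Cd44, Vcam1 and Pdgfrb) and for 1 that was lower (Thy1). Groups lay apart for 25.5% of all genes of the table, 16.9% with CKD higher, so that count is near the background. Of the 17, 16 were tested and 0 were called by limma, beside 2.07% of all tested genes. Of 7 endothelial markers, at most 1 reached 1 FPKM in any library, though not always the same gene. Erg did so in CKD replicate 1 (2.13 FPKM) and Tie1 in CKD replicates 2 and 3 (2.48 and 2.31 FPKM). Tek did so in control replicates 2 and 3 (2.25 and 2.31 FPKM). All 7 were above 0 in CKD replicates 2 and 3. Thy1, the stromal surface protein CD90, averaged 540 ± 33.8 FPKM in CKD libraries and 728 ± 119 FPKM in control libraries (SD, n = 3 each), while Ptprc, the leukocyte protein CD45, had 15.5 and 11.4 FPKM in CKD replicates 2 and 3 and no more than 1.33 FPKM in the other 4 libraries. Csf1r, a macrophage receptor, ran from 1.42 to 25.7 FPKM in CKD libraries and from 0.152 to 2.20 FPKM in control libraries. The stromal genes Itgb1 and Pdgfra were at 847 FPKM or more and at 16.7 FPKM or more in all 6 libraries, while the endothelial genes Pecam1 and Cdh5 reached at most 0.172 and 0.153 FPKM. In bulk RNA, more cells of a type and more RNA per cell cannot be told apart.

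The clearest difference between CKD and control within the family was in Lifr, the receptor chain for LIF and CLCF1, which was higher in every CKD library. Lifr stood at 0.682, 1.63 and 1.85 FPKM in CKD replicates 1 to 3, against 0.134, 0.144 and 0.115 FPKM in control replicates 1 to 3. The groups did not overlap, and the lowest CKD library had 4.74 times the level of the highest control library. The mean was 1.39 ± 0.621 FPKM in CKD libraries and 0.131 ± 0.0147 FPKM in control libraries (SD, n = 3 each), a ratio of 10.6. Behind these levels were 311, 663 and 941 fragments in CKD and 74, 71 and 52 in control. The exact Poisson interval (95%, counting error only) of the lowest CKD library, 0.608 to 0.762 FPKM, was clear of that of the highest control library, 0.112 to 0.182 FPKM.

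Lifr did not enter the main test, which required 1 FPKM or more in 3 or more libraries, because only CKD replicates 2 and 3 reached that level. In the authors' deposited table the log2 fold change of Lifr was 3.31 with q = 2.21e-13, where 11.3% of all genes had q under 0.05 and 6.72% were also higher in CKD. In limma-voom on recovered fragments, with at least 10 fragments in at least 3 libraries required, its log2 fold change was 3.20 ± 0.67 SE (95% interval 1.55 to 4.86; adjusted p = 0.0937), where 0.696% of genes were called. Limma on log2(FPKM + 0.1) with the same filter called it (log2 fold change 2.58 ± 0.37 SE, adjusted p = 0.0449), where 1.66% of genes were called and 1.07% were called higher. Limma on log2(FPKM + 1) did not call it, either without a filter (adjusted p = 0.0929, 0.797% of genes called) or with the fragment filter (adjusted p = 0.0769, 1.48% of genes called). Over the 6 limma-voom fits that leave out 1 library each, the log2 fold change ran from 2.92 to 3.62. It was called only without CKD replicate 1 (adjusted p = 0.00588), in a fit that called 13.9% of genes and 9.02% higher in CKD. Grouped by the disease model tag, the log2 fold change was 1.75 (limma-voom adjusted p = 0.790).

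The haematopoietic marker sums moved with the group in replicates 2 and 3, where they were far higher in CKD. In the replicates numbered 1 the sum was 297 FPKM in CKD and 409 FPKM in control, and the Lifr level in CKD was 5.11 times that in control. With the mean of the marker list as a covariate in limma-voom, the log2 fold change of Lifr was 2.30 ± 0.42 SE (adjusted p = 0.159). The part of other cell types in the Lifr result was not tested further.

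**Figure D1:**
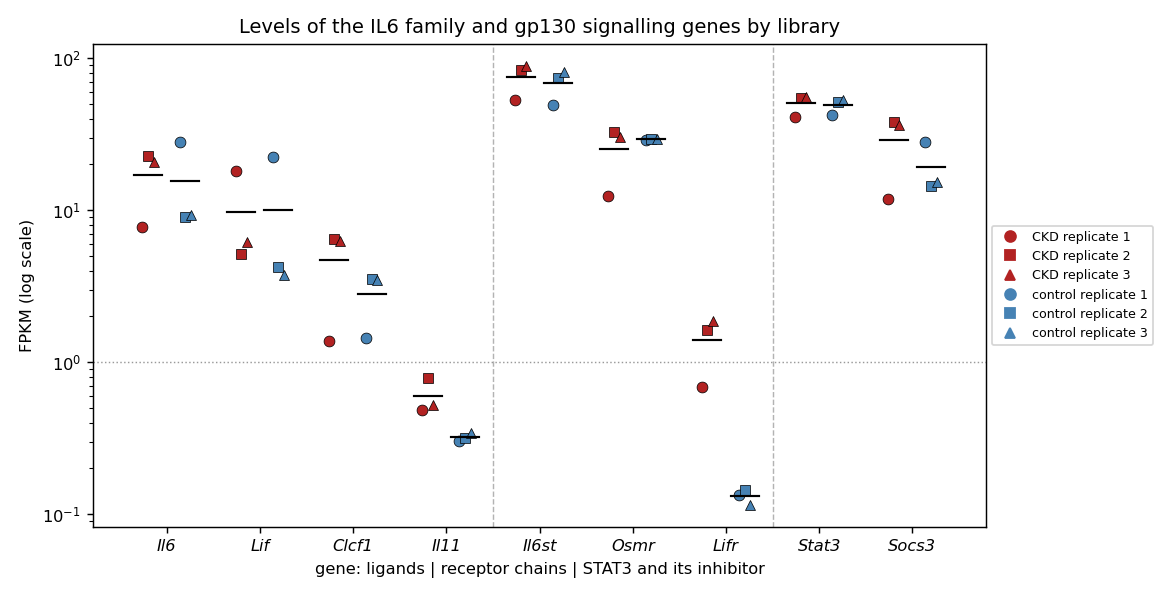
Level of each gene in FPKM (log axis) in the 3 CKD libraries (red) and the 3 control libraries (blue); symbols give the replicate number, black bars the group means, and the dotted line 1 FPKM. Lifr and Il11 are the genes whose groups do not overlap, with Lifr at 0.682 to 1.85 FPKM in CKD and 0.115 to 0.144 FPKM in control.

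Among the ligands, Il6, Lif and Clcf1 had widely spread levels within both groups. Il6 stood at 7.79, 22.6 and 20.6 FPKM in CKD replicates 1 to 3 and at 28.1, 9.01 and 9.32 FPKM in control replicates 1 to 3. CKD replicate 1 was the lowest and control replicate 1 the highest of all 6 libraries, so the groups overlapped fully. The group means were 17.0 ± 8.04 FPKM in CKD libraries and 15.5 ± 11.0 FPKM in control libraries (log2 fold change 0.19 ± 0.57 SE, 95% interval -1.21 to 1.60, limma adjusted p = 0.876).

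Lif, which keeps embryonic stem cells undifferentiated in mouse culture and acts on bone cells, varied most among the tested members. It stood at 18.0, 5.13 and 6.14 FPKM in CKD and at 22.2, 4.25 and 3.72 FPKM in control. Both replicates numbered 1 were high and the other 4 libraries low, and the highest library had 5.97 times the level of the lowest. The group difference was small beside that spread (log2 fold change 0.18 ± 0.75 SE, 95% interval -1.68 to 2.03, limma adjusted p = 0.914).

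Clcf1, a cytokine that signals through gp130 and the LIF receptor, went the other way across libraries. It stood at 1.37, 6.40 and 6.27 FPKM in CKD and at 1.43, 3.50 and 3.49 FPKM in control. The replicates numbered 1 were the lowest of each group and close to each other, while CKD replicates 2 and 3 lay above every control library. The difference did not pass the test (log2 fold change 0.46 ± 0.52 SE, 95% interval -0.82 to 1.74, limma adjusted p = 0.640).

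Il11, a cytokine known for its roles in osteoclast formation and fibrosis, was the weakest ligand. It stood at 0.483, 0.786 and 0.518 FPKM in CKD and at 0.304, 0.315 and 0.344 FPKM in control. Each CKD library was above each control library, though the lowest CKD library exceeded the highest control library only 1.41-fold. The values rested on 51, 74 and 61 fragments in CKD and 39, 36 and 36 in control, and the counting intervals of CKD replicate 1 (0.360 to 0.635 FPKM) and control replicate 3 (0.241 to 0.476 FPKM) overlapped. Il11 was below the filter of the main test, and limma-voom with the fragment filter did not call it (log2 fold change 0.76 ± 0.28 SE, adjusted p = 0.221). In the authors' deposited table its log2 fold change was 0.80 with q = 0.125.

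The shared receptor chain Il6st was the most abundant of the 9 genes in both groups. It stood at 53.1, 83.8 and 88.7 FPKM in CKD and at 48.8, 74.3 and 81.2 FPKM in control. The replicates numbered 1 were again the lowest of each group, and the groups overlapped (log2 fold change 0.14 ± 0.27 SE, 95% interval -0.54 to 0.81, limma adjusted p = 0.800).

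Osmr, the private chain for oncostatin M, was nearly constant in control and split in CKD. It stood at 12.3, 32.7 and 30.3 FPKM in CKD, against 29.1, 29.3 and 29.3 FPKM in control. CKD replicate 1 was far below the other 5 libraries, and CKD replicates 2 and 3 were above all controls. The coefficient of variation was 44.4% in CKD and 0.440% in control, and the difference in level did not pass the test (log2 fold change -0.32 ± 0.36 SE, 95% interval -1.22 to 0.57, limma adjusted p = 0.634).

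Set against either of the other receptor chains, Lifr was higher in every CKD library than in every control library. The gap between groups in Lifr (4.74-fold) was wider than the whole range of Osmr (2.65-fold) or Il6st (1.82-fold). This order and the permutation results below therefore followed from the Lifr levels and are no separate test. The Lifr level was 5.54%, 4.99% and 6.11% of the Osmr level in CKD replicates 1 to 3, and 0.459%, 0.491% and 0.392% in control replicates 1 to 3. Set against Osmr, CKD replicate 1 no longer stood apart from the other CKD libraries. The means were 5.54 ± 0.558% in CKD and 0.448 ± 0.0505% in control (SD, n = 3 each; two-sided exact permutation p = 0.10, the smallest that 3 against 3 libraries allow). Relative to Il6st, Lifr stood at 1.28%, 1.95% and 2.09% in CKD replicates 1 to 3, so CKD replicate 1 stayed the lowest of its group. It stood at 0.274%, 0.194% and 0.142% in control replicates 1 to 3. The means were 1.77 ± 0.428% in CKD and 0.203 ± 0.0666% in control (exact permutation p = 0.10).

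Stat3, the transcription factor activated below gp130, varied least. It stood at 41.0, 54.6 and 55.6 FPKM in CKD and at 42.3, 51.0 and 53.0 FPKM in control. The replicates numbered 1 were the lowest of each group, and the interval of the difference was the narrowest of the 7 tested members (log2 fold change 0.04 ± 0.15 SE, 95% interval -0.34 to 0.42, limma adjusted p = 0.904). The direction of this small difference turned with the scaling between libraries, at -0.04 after scaling by size factors and -0.02 after scaling by the upper quartile.

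Socs3, a target of STAT3 and inhibitor of gp130, followed Il6 rather than Stat3. It stood at 11.8, 38.2 and 36.4 FPKM in CKD and at 28.0, 14.5 and 15.2 FPKM in control. CKD replicates 2 and 3 were the highest libraries, control replicate 1 came next and CKD replicate 1 was the lowest (log2 fold change 0.45 ± 0.50 SE, 95% interval -0.79 to 1.70, limma adjusted p = 0.632). The 3 libraries with the highest Il6 and Socs3 levels were also those with the largest haematopoietic marker sums. CKD replicate 1, with a marker sum nearer to that of control replicate 1 than to the other 4 libraries, had the lowest levels of both genes. With the marker list mean as a covariate, the log2 fold changes of Il6 and Socs3 turned to -1.28 and -0.84 (limma adjusted p = 0.127 and 0.211), and the part of haematopoietic cells in these levels was not tested further.

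**Figure D2:**
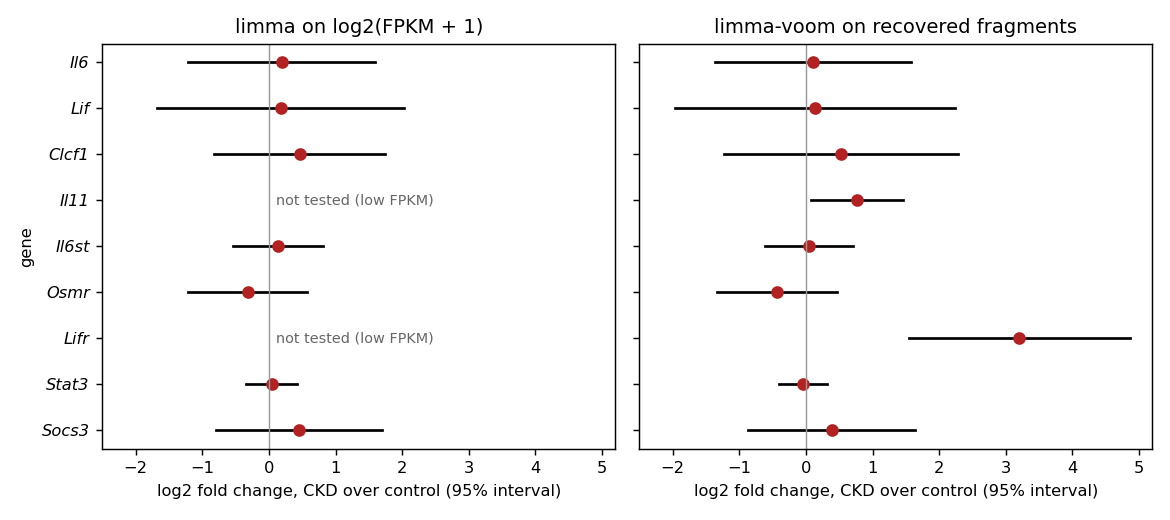
Log2 fold change of CKD over control with its 95% interval (horizontal axis) for each gene, from limma on log2(FPKM + 1) at left and limma-voom on recovered fragments with the fragment filter at right. Lifr has the largest difference at right, 3.20 with an interval of 1.55 to 4.86, and Il11 is the other gene whose interval there lies above 0 (0.08 to 1.45), although neither was called after adjustment over all genes. In the fit at right, 2 of 9 members had an unadjusted p under 0.05, beside 2744 of all 13945 genes.

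Of the 9 members, 7 were tested and 0 were called by limma, with 0 at an unadjusted p under 0.05. Of all 10638 tested genes, 2.07% were called and 2354 had an unadjusted p under 0.05. Limma-voom called 0 of these 7 members as well. A log2 fold change above 0 was seen for 6 of the 7, beside 6321 of all 10638 tested genes, with a median of 0.18 beside 0.05. For Lif and Stat3 the sign depends on the scale, since the mean FPKM of Lif was lower in CKD (9.74 ± 7.14) than in control (10.1 ± 10.5), and the authors' deposited table gives log2 fold changes of -0.10 for Lif and -0.04 for Stat3. Groups that did not overlap were found for 2 of the 9 members, Lifr and Il11, both with CKD above control, beside 25.5% of all genes of the table in either direction and 16.9% in that one, so that count is near the background.

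Across the 6 libraries the members fell into separate patterns, given here as Pearson correlations of log2(FPKM + 1) over 6 libraries that share their depth and cell makeup. Il6 and Socs3 varied together (r = 0.92). Il6st, Stat3 and Clcf1 shared another pattern (r = 0.98 for Il6st with Stat3, 0.95 for Il6st with Clcf1 and 0.96 for Clcf1 with Stat3), and Lif ran against it (r = -0.92 with Il6st). Il6 was only weakly related to Lif (r = 0.24) and to Stat3 (r = 0.13).

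These patterns gave different answers depending on which libraries were set against each other. CKD replicate 1 had 0.277 times the Il6 level of control replicate 1, while CKD replicates 2 and 3 averaged 2.36 times the level of control replicates 2 and 3. The same ratios were 0.422 and 2.51 for Socs3, 0.424 and 1.08 for Osmr, 0.958 and 1.81 for Clcf1, and 0.808 and 1.41 for Lif. They were 0.970 and 1.06 for Stat3. The direction differed between these sets for 6 of the 7 tested members, against 45.0% of all tested genes. Il6st (1.09 and 1.11), Il11 (1.59 and 1.98) and Lifr (5.11 and 13.4) had the same direction in both.

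Leaving out CKD replicate 1 and control replicate 1 gave called rises of 4 of the 7 tested members. These were Socs3 (log2 fold change 1.27, limma adjusted p = 5.17e-06), Il6 (1.15, 1.56e-05), Clcf1 (0.71, 0.000160) and Lif (0.41, 0.0114). That fit called 55.0% of all tested genes, 34.7% as higher in CKD, and it sets the pairs of libraries that resemble each other most against one another. None of the 7 members was called by limma on log2(FPKM + 1) when any single library was left out. In limma-voom with the fragment filter, 5 of the 9 members were called without both replicates numbered 1, where 51.8% of genes were called and 26.8% were called higher. Lifr was among them (log2 fold change 3.64, limma-voom adjusted p = 3.14e-07).

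**Figure D3:**
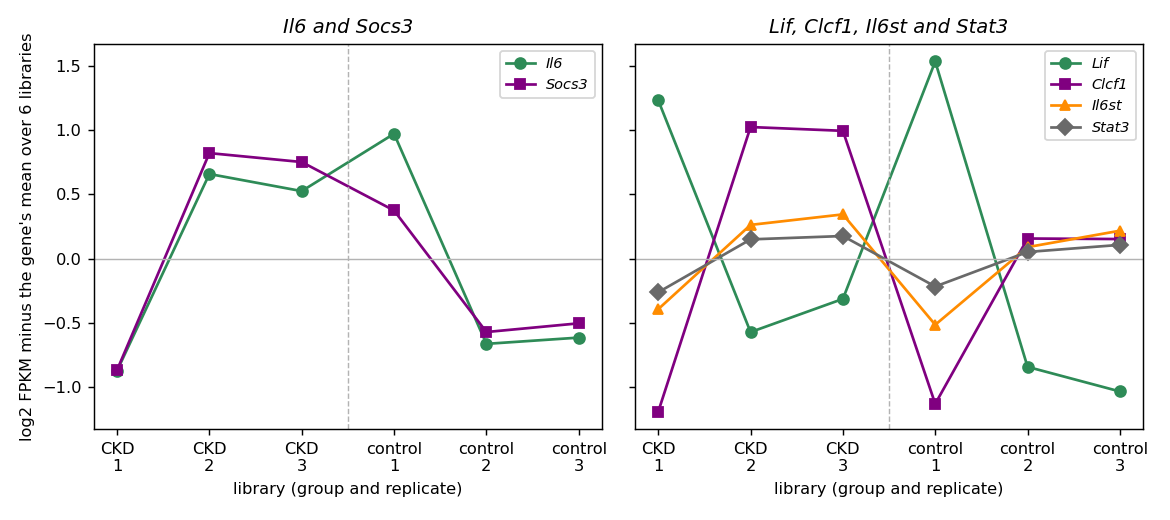
Level of each gene in each library as log2 FPKM minus the gene's mean over 6 libraries (vertical axis); the lines join libraries of no natural order to show the pattern. Il6 and Socs3 are low in CKD replicate 1 and high in control replicate 1 (left), while Clcf1, Il6st and Stat3 are lowest and Lif highest in both replicates numbered 1 (right).

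In the order of levels, Il6st came first and Stat3 next in both groups, with overlapping ranges. Stat3 was clear of the genes below it, which were Socs3 and Osmr in CKD and Osmr and Socs3 in control. Il6, Lif and Clcf1 followed in that order by mean. In CKD every neighbour from Socs3 down to Il11 had overlapping ranges. In control the range of Osmr (29.1 to 29.3 FPKM) was clear of that of Socs3 (14.5 to 28.0 FPKM), and Clcf1 was clear of its neighbours. Counting intervals overlapped, though, for Osmr (28.4 to 29.8 FPKM) and Socs3 (27.1 to 28.9 FPKM) in control replicate 1. They also overlapped for Clcf1 in control replicate 2 (3.19 to 3.84 FPKM) and Lif in control replicate 3 (3.47 to 3.99 FPKM). Lifr (0.115 to 0.144 FPKM) came last in control, below Il11 (0.304 to 0.344 FPKM). In CKD, Lifr had the higher mean of the 2, with Il11 last.

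Among 65 other genes of the pathway, sorted into 5 lists, 63 were in the table, 52 were tested, 0 were called higher and 1 was called lower in CKD, beside 1.33% and 0.733% of all tested genes. The median log2 fold change over the 52 genes was 0.09, beside 0.05 over all tested genes. An unadjusted p under 0.05 was found for 6 of the 52, beside 2354 of all 10638 tested genes. The called gene was Il11ra1, the private receptor chain that binds IL11. It stood at 8.64, 8.76 and 8.46 FPKM in CKD and at 13.0, 15.3 and 17.4 FPKM in control. The groups did not overlap, and the coefficient of variation among the CKD libraries was 1.77%. Il11ra1 fell to 8.62 ± 0.153 FPKM in CKD, against 15.3 ± 2.20 FPKM in the control libraries (SD, n = 3 each; log2 fold change -0.75 ± 0.11 SE, 95% interval -1.02 to -0.47, limma adjusted p = 0.0439).

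The call of Il11ra1 was close to the threshold. It was lost without CKD replicate 2 (limma adjusted p = 0.199), CKD replicate 3 (0.229), control replicate 2 (0.177) or control replicate 3 (0.197), although the log2 fold change stayed between -0.85 and -0.65 in all 6 fits that leave out 1 library. It was also lost without a filter on low values (0.0593), in limma-voom with the fragment filter (0.0550), with the replicate number as a block (0.0842), without both libraries with conflicting tags (0.111) and with the marker list mean as a covariate (log2 fold change -0.60, 0.259), and with groups by the disease model tag the log2 fold change was -0.24 (0.816).

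**Figure D4:**
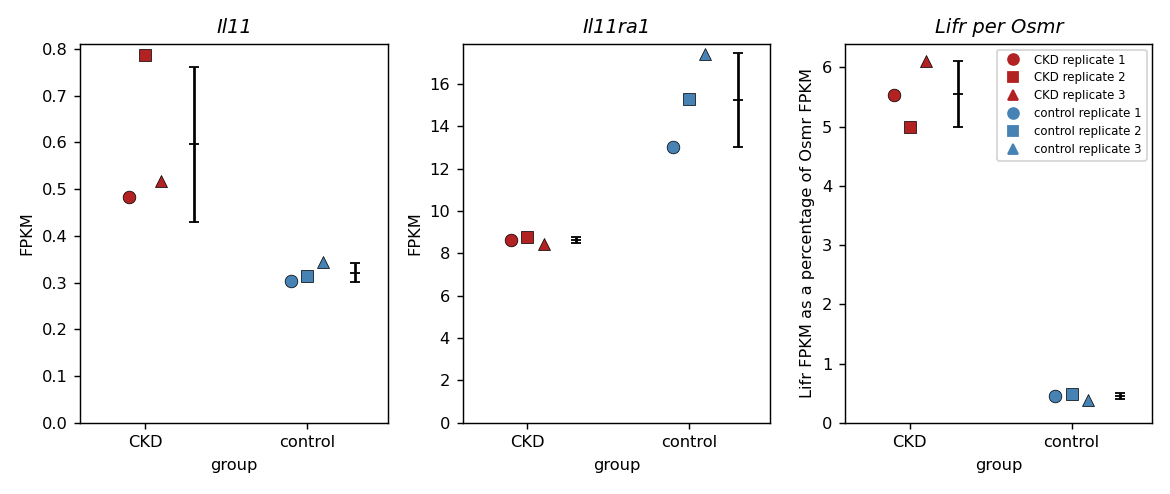
Il11 and Il11ra1 levels in FPKM and the Lifr level as a percentage of the Osmr level, by group; symbols are libraries, and the bars beside them give the mean ± SD (n = 3 each). Il11 is higher and Il11ra1 lower in each CKD library than in each control library, and Lifr per Osmr is 4.99% to 6.11% in CKD and 0.392% to 0.491% in control.

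Of the other gp130 ligands, 3 of 5 measured genes were tested and 0 were called. Ctf1, which encodes cardiotrophin 1, averaged 1.30 ± 0.972 FPKM in CKD libraries and 1.54 ± 0.785 FPKM in control libraries, and Cntf, ciliary neurotrophic factor, had 2.09 ± 0.705 FPKM in CKD libraries and 1.96 ± 0.202 FPKM in control libraries. Neither passed the test (limma adjusted p = 0.796 and 0.931). Osm, the ligand of OSMR and a known product of macrophages, was below the filter, at 0.0808, 1.11 and 0.977 FPKM in CKD and at 0.382, 0.0124 and 0 FPKM in control. Its order over the 6 libraries was that of the haematopoietic marker sums.

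Of the other receptor genes and the proteases that shed receptors, 4 of 5 measured were tested and Il11ra1 was the 1 called. Il6r, the private receptor for IL6, stood at 0.375, 2.69 and 2.18 FPKM in CKD and at 0.660, 1.12 and 0.988 FPKM in control. CKD replicate 1 was the lowest library and CKD replicates 2 and 3 the highest (log2 fold change 0.40 ± 0.39 SE; limma, adjusted p = 0.573). In every library the Il6r level was far below that of Il6st. Adam10, a protease that releases IL6R from the cell surface, had 32.9 ± 7.36 FPKM in CKD libraries and 26.7 ± 1.96 FPKM in control libraries. Adam17, a protease with the same action, had 21.4 ± 4.69 FPKM in CKD libraries and 18.2 ± 0.659 FPKM in control libraries, and neither gene passed the test (limma adjusted p = 0.421 and 0.522).

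All 11 JAK, STAT and adaptor genes were tested and 0 were called. An unadjusted p under 0.05 was found for 1 of them, beside 2354 of all 10638 tested genes. Jak1, a kinase bound to gp130, averaged 60.5 ± 9.07 FPKM in CKD libraries and 63.4 ± 8.29 FPKM in control libraries, and Jak2 had 24.1 ± 5.56 FPKM in CKD libraries and 19.2 ± 1.67 FPKM in control libraries. The adaptor gene Shc1 averaged 77.7 ± 15.4 FPKM in CKD libraries and 71.1 ± 6.13 FPKM in control libraries, and Stat5b had 4.33 ± 0.227 FPKM in CKD libraries and 3.44 ± 1.38 FPKM in control libraries. Adjusted p-values of these 4 genes ran from 0.390 to 0.824 (limma).

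Among 12 other inhibitors of the pathway, 9 were tested and 0 were called. An unadjusted p under 0.05 was found for 2 of the 9, beside 2354 of all 10638 tested genes. These were Ptpn2, above control, and Socs6, below it. Ptpn2, a phosphatase that acts on JAKs and STATs, averaged 4.18 ± 0.841 FPKM in CKD libraries and 2.84 ± 0.280 FPKM in control libraries, with groups that did not overlap (limma adjusted p = 0.163). Socs6, another SOCS family gene, picked out after its values were seen, had 5.07 ± 0.326 FPKM in CKD libraries and 6.20 ± 0.542 FPKM in control libraries (limma adjusted p = 0.188). Ptpn6, a phosphatase best known from blood cells, followed the haematopoietic markers, at 0.898, 13.6 and 9.36 FPKM in CKD and at 1.82, 0.717 and 0.648 FPKM in control (limma adjusted p = 0.268). Sh2b3, an adaptor that restrains JAK2, averaged 9.50 ± 2.66 FPKM in CKD libraries and 6.84 ± 2.27 FPKM in control libraries, and Socs5 had 30.5 ± 9.79 FPKM in CKD libraries and 37.2 ± 12.3 FPKM in control libraries (limma adjusted p = 0.435 and 0.690).

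Of 30 genes known to respond to STAT3, 25 were tested and 0 were called, with a median log2 fold change of 0.10. An unadjusted p under 0.05 was found for 2 of the 25, beside 2354 of all 10638 tested genes. Lbp, which encodes the acute-phase lipopolysaccharide binding protein, stood at 18.2, 55.4 and 60.6 FPKM in CKD and at 13.4, 15.3 and 16.1 FPKM in control. Every CKD library was above every control library (log2 fold change 1.35 ± 0.46 SE; limma, adjusted p = 0.171). Junb, which encodes a subunit of the AP-1 transcription factor, was the other gene at an unadjusted p under 0.05, and was picked out after its values were seen. Junb stood at 131, 113 and 113 FPKM in CKD and at 188, 165 and 182 FPKM in control, with every CKD library below every control library (log2 fold change -0.58 ± 0.10 SE, limma adjusted p = 0.0509). Lcn2, a siderophore-binding protein of the acute phase, stood at 0.0593, 85.9 and 124 FPKM in CKD and at 4.68, 0.548 and 1.08 FPKM in control, with CKD replicate 1 the lowest of all. The chemokine gene Ccl2 stood at 83.0, 597 and 438 FPKM in CKD and at 56.5, 145 and 164 FPKM in control (limma adjusted p = 0.382 for Lcn2 and 0.394 for Ccl2). Timp1, an inhibitor of metalloproteinases, was the most abundant of the list, at 432 ± 48.3 FPKM in CKD and 500 ± 183 FPKM in control (limma adjusted p = 0.828).

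The tested genes whose levels over the 6 libraries were most like those of Il6 were Myom3 (r = 0.997), Fcgr2b (0.993) and Nfkbiz (0.990). Nfkbiz, which encodes a nuclear regulator of NF-kB targets, stood at 16.1, 49.2 and 43.3 FPKM in CKD and at 53.2, 15.9 and 16.2 FPKM in control, the same split of libraries as Il6. Fcgr2b, an Fc receptor of leukocytes, ran from 0.120 to 2.48 FPKM in CKD and from 0.226 to 3.78 FPKM in control. For Socs3 the most alike genes were Tmem131l (r = 0.996), Stard7 (0.995) and Ppif (0.994), and for Il6st they were Pagr1 (0.995), Gnai3 (0.994) and Vasn (0.993). With 6 libraries high correlations are common, and r was above 0.95 with 53 genes for Il6, 97 for Socs3 and 201 for Il6st.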

How the data were processed

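Per the file headers, the authors deposited 1 table with decimal commas, which holds FPKM by library, mean normalized counts by group, fold changes on a linear and a log2 scale, and p-values with q-values. The submitters' processing notes name HISAT2 2.1.0, HTSeq 0.11.2, DESeq2 1.22.2 and the build mRatBN7.2, without order or settings. Libraries were grouped by column code and title. The library name gives the same group except in control replicate 3, whose library name gives no group.

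Fragment counts were recovered from FPKM and the deposited group means, and all 100140 values came out whole within 0.01. The main test of CKD against control used limma 3.58.1 under R 4.3.3, taking log2(FPKM + 1) values, a trend of variance with level and two-sided p-values adjusted by Benjamini-Hochberg (threshold 0.05). It covered the 10638 genes that reached 1 FPKM in 3 or more libraries. Folds on this scale understate changes of low genes. A second filter, at least 10 fragments in at least 3 libraries (13945 genes), was added after Lifr and Il11 were seen to miss the first, in limma and in limma-voom on recovered counts. Correlations and exact permutation tests over libraries were computed from FPKM.

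Members were fixed by gene name, with no measured value used. The pathway lists and the main test were chosen with earlier results of these data known. All members are named. From each pathway list the called genes, the 3 with the largest change and the 2 with the highest level are named, with the 3 genes most alike to each of Il6, Il6st and Socs3 and 7 marker genes. Osm, Junb, Socs6, Cd44, Vcam1, Pdgfrb, Erg, Tie1 and Tek were added after their values were seen. A pair of genes that this rule takes are not reported here. Intervals of counts cover counting error only. No 2 libraries agreed within sampling noise, with a chi-square of 5.04 or more for each degree of freedom.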

Additional observations from a re-analysis of the deposited data

How the results depend on the processing

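With 3 libraries a group, most member results rested on which libraries entered. The number of called genes over the whole table, 220 in the main analysis, was 133 without a filter on low values, 123 in limma-voom on recovered counts, 97 in limma-voom with the fragment filter, 18 with the haematopoietic covariate and 5851 without both replicates numbered 1, and ran from 6 to 1602 when 1 library was left out: 1602 without CKD replicate 1, 1279 without control replicate 1 and at most 9 without any of the other 4. With groups by the disease model tag limma called 0, with 641 at an unadjusted p under 0.05. Of the 7 tested members, limma called 4 without both replicates numbered 1, where 55.0% of all tested genes were called. They kept the direction of the main analysis (log2 fold change 1.15 for Il6, 1.27 for Socs3, 0.71 for Clcf1 and 0.41 for Lif). Limma-voom with the fragment filter called 5 of the 9 members there, Lifr among them, and 51.8% of genes. With the fragment filter and a pseudocount of 0.1, limma called 1 of the 9 members (Lifr). Of the pathway genes, 1 in the main analysis, 35 were called without both replicates numbered 1 (24 higher, 11 lower), 2 after scaling by size factors (both lower), 2 without both libraries with conflicting tags (both higher, with the call of Il11ra1 lost), and 0 to 16 when 1 library was left out (16 without CKD replicate 1, 6 without control replicate 1). The number was 0 by limma without a filter, with the covariate or with groups by the tag, and 0 in limma-voom with the fragment filter. In that order, 6 of 63, 6 of 52, 10 of 52 and 6 of 61 pathway genes had an unadjusted p under 0.05. Over all tested genes this was 3209 of 16690, 1223 of 10638, 641 of 10638 and 2744 of 13945.

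The replicate numbers did not pair the libraries (correlations of same-numbered deviations 0.036, -0.031 and 0.109). With the replicate number as a block, limma called 88 genes, with 0 members and 0 pathway genes. An unadjusted p under 0.05 was found for 0 members and 10 pathway genes, beside 2445 of all 10638 tested genes. In limma-voom with the fragment filter and this block, Lifr had an adjusted p of 0.0649. That limma-voom fit called 0 of 13945 genes.

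Directions of uncalled members turned as follows. With the haematopoietic covariate the log2 fold change was -1.28 for Il6, -0.84 for Socs3, -0.06 for Clcf1 and -0.06 for Stat3. With groups by the tag it was -1.06 for Lif and 0.47 for Osmr. Without both libraries with conflicting tags it was -0.66 for Lif and 0.11 for Osmr, and without both replicates numbered 1 it was 0.10 for Osmr. For Stat3 it was -0.05 in limma-voom with either filter, -0.04 after scaling by size factors and -0.02 by the upper quartile. Leaving out 1 library gave -0.07 to 0.70 for Il6, -0.33 to 0.92 for Lif, -0.08 to 0.37 for Il6st, -0.57 to 0.10 for Osmr and -0.06 to 0.18 for Stat3. The direction of Lifr, Il11 and Il11ra1 held in every fit run. The cause of these turns was not tested. Depth limits Il11, with 36 to 74 fragments a library.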
